A study of Mus musculus with 2 samples.

Results

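YY1 summits were examined at 81 genes of the centrosome and the cilium, out of 21887 protein-coding genes of the mouse. The members were chosen by symbol and by name: 75 genes whose symbol is Cep, Haus, Ift, Bbs, Tubgcp or Tpgs with a number, and 6 genes given singly, Cdk5rap2, Ccdc151, Iqcg, Pcnt, Tubg1 and Tubg2. Earlier results of the same peak lists had already named Cdk5rap2, Ccdc151 and Iqcg as well as Tpgs1, so a peak at these genes is part of how the members came to be chosen and is given as a description. A gene was counted when a peak summit lay inside it or within 1 kb of either of its ends. It owned the summit when no other protein-coding gene was in reach of it, and otherwise shared it. In the library from cold-exposed mice 16 of the 81 members had a summit, 7 of them as owners and 9 as sharers. In the room temperature library 3 members had one, 2 as owners and 1 as a sharer.

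The libraries came from mature adipocytes, which collagenase treatment had freed from inguinal fat (iWAT), a depot under the skin, taken from male C57 mice of wild-type genotype aged 8 to 10 weeks. The cold library was made from mice after 7 days of cold stress and the room temperature library from mice raised at room temperature, both with an anti-YY1 antibody. There was 1 library per condition, so no difference between conditions could be set against a replicate spread, and the number of mice behind each library is not given in the labels. The assay carries the name ChIP-seq in the labels, but the protocol is CUT&Tag, in which an antibody-guided transposase cuts and tags DNA in unfixed nuclei and which also tags some open chromatin unrelated to the antibody. The cold list held 1259 summits and the room temperature list 165, with a median of 20 and 13 fragments per summit. Peak names carry the number 4 in the cold list and 30 in the room temperature list; the sources do not say what these numbers mean. None of 8 adipocyte marker genes had a summit in either library, and of the marker genes of macrophages, fibroblasts or preadipocytes, endothelium and lymphocytes only the endothelial Pecam1 did, after cold. Binding does not measure expression, so the labelled cell type could not be checked in these lists.

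The centrosome is a pair of centrioles in a protein matrix that nucleates microtubules through gamma-tubulin rings, and one of its centrioles can become the base of a cilium, a microtubule-based projection of the cell surface. Intraflagellar transport carries cargo along the cilium, and the BBSome, an assembly of Bbs proteins, moves membrane proteins in and out of it. Precursors of adipocytes carry a primary cilium, which is lost as they mature, while centrosome and microtubule proteins also serve cells without one. YY1 is a zinc finger factor that binds DNA around the letters ATGGC and often sits close to gene starts.

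The start windows of the members show those letters directly. RefSeq start windows of GRCm38.p6, the assembly behind mm10, run from 250 bases before a start to 50 bases from the start on, and were at hand for 68 of the 81 members and for 12 of the 16 with a cold summit. The letters searched on both strands were ATGGC and its longer form AANATGGC, which contains it. Of the 76 windows of members, 11.8% held AANATGGC and 40.8% held ATGGC, against 6.37% and 38.8% of all 21263 start windows of protein-coding genes. The longer form was in 46.2% of the 13 windows of members with a cold summit. It was in 4.76% of the 63 windows of members without one. The members were chosen with the peak lists known, so the share over all members is a description. Of the 422 windows of any gene with a cold summit inside them, 73.9% held the longer form, and of the 65 with a room temperature summit 92.3% did. The 4 member windows with a cold summit inside them, at Tpgs1, Cdk5rap2, Cep250 and Cep20, all held it. Both strongest member peaks lay at windows that held it, and these windows are given whole, 5′ to 3′ on the strand of the gene, with AANATGGC in capitals. Cdk5rap2 is on the minus strand (chr4:70410386-70410685) and Tpgs1 on the plus strand (chr10:79669189-79669488).
Cdk5rap2: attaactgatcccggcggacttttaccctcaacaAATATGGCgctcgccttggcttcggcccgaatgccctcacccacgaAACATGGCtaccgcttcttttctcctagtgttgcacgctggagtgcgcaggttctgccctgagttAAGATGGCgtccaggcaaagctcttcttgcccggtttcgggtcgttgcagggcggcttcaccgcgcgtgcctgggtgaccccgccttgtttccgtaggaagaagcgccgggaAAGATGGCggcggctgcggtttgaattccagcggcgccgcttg
Tpgs1: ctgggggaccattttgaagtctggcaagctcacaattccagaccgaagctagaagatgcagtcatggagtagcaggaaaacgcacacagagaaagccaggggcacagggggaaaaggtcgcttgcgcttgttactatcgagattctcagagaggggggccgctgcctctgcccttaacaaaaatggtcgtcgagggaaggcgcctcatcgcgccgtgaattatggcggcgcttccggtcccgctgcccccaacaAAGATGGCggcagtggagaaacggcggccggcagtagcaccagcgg

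The Cdk5rap2 window held 4 copies of AANATGGC, all on the strand of the gene. It was the only one of the 21263 windows with at least 4, a comparison made after the sequence had been seen. Counted from the start as 1, with no 0, the copies began at -216, -170, -105 and 8. The fourth base of each copy lay at -85, -39, 26 and 138 bp from the cold summit, in the direction of the gene, so the summit stood among them. The Tpgs1 window held 1 copy, which began at base 5 and lay 78 bp downstream of the cold summit. A match of letters is a description and does not show that YY1 bound there.

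Of the other members with a cold summit, Cep250, Cep20, Bbs1 and Tubgcp3 had 1 copy each. The stretches around these copies are set side by side, with 20 bases on either side of the capitals, so that the letters around each copy can be compared. The stretches lie at chr2:155956438-155956485 (plus strand), chr16:14317297-14317344, chr19:4906578-4906625 and chr8:12672078-12672125 (minus strand).
Cep250: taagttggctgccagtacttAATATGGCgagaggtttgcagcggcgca
Cep20: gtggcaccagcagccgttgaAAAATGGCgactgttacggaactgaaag
Bbs1: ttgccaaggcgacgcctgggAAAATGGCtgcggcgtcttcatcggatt
Tubgcp3: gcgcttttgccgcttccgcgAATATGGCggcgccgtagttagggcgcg

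The copy lay 10 bp downstream of the cold summit at Cep250 and at -32 bp at Cep20, -39 bp at Bbs1 and -62 bp at Tubgcp3. Over all start windows with both a cold summit and the letters, the nearest copy lay at a median of 23 bp from the summit in either direction, and within 100 bp in 96.2% of 313 pairs. Both had to fall in the same window, which limits the distance that could be seen. Altogether 6 of the 12 members with a window and a cold summit held AANATGGC, against 3 of the 56 members with a window and no cold summit. In the remaining 6, Pcnt, Ccdc151, Iqcg, Cep95, Cep97 and Cep57, the member's own window held neither the longer form nor the summit. At Ccdc151, Iqcg and the weaker summit of Cep95 a window of the neighbour contained the summit and is described with those genes.

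**Figure D1:**
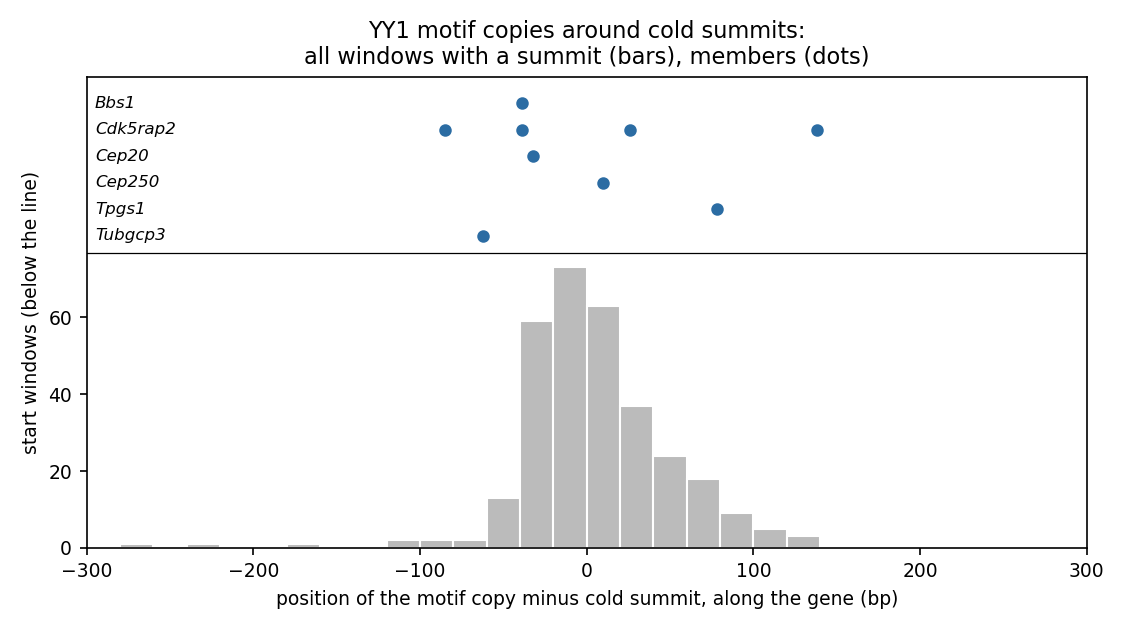
Dots give each copy of the YY1 letters AANATGGC in the start windows of 6 members, and bars count start windows of protein-coding genes with a cold summit by the position of their nearest copy; the x axis is the position of the copy minus the cold summit, along the gene, in bp. The copies at Cep250 (10 bp), Cep20 (-32 bp) and Bbs1 (-39 bp) lie where most bars stand, and the 4 copies at Cdk5rap2 lie on both sides of the summit.

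The 3 members without a cold summit that held the letters were Cep72, Cep126 and Ift88. Their stretches lie at chr13:74062238-74062285 and chr9:8134408-8134455 (minus strand) and at chr14:57423822-57423869 (plus strand), and are shown because they hold the same 8-letter form with no listed peak. At Ift88 the copy is on the other strand, so the capitals read GCCATCTT, and it lies far from the start, at -229. The copies at Cep72 and Cep126 begin at bases 21 and 12.
Cep72: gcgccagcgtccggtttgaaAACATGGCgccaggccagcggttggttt
Cep126: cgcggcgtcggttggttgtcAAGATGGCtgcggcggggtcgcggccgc
Ift88: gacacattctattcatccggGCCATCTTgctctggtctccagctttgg

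After cold, 16 of 81 members had a summit, or 19.8% (95% Clopper-Pearson interval 11.7 to 30.1). Of all protein-coding genes 6.42% did. At room temperature 3 of 81 members had a summit (3.70%, 0.770 to 10.4), and 0.864% of all protein-coding genes. After cold, 7 of the 81 members owned a summit, and 862 of all 21887 protein-coding genes did (3.94%). At room temperature 2 of the 81 members owned one, and 108 of the 21887 genes (0.493%). Among genes with a cold summit, 43.8% of the members owned it (19.8 to 70.1) and 61.3% of all protein-coding genes did. Without the 6 genes named singly, of which 4 had a cold summit and 2 a room temperature summit, the counts were 12 of 75 after cold (16.0%, 8.55 to 26.3) and 1 of 75 at room temperature (1.33%, 0.0338 to 7.21). Tpgs1, which earlier results of these lists had also named, stayed in both of these counts and was the 1 room temperature gene. The members were chosen with these lists known, so the shares are read as a description. They are also longer genes, with a median of 34961 bp against 17169 bp for all protein-coding genes, but the 17 member summits after cold all lay within 1 kb of a gene end, so the length of the gene body added none.

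**Figure D2:**
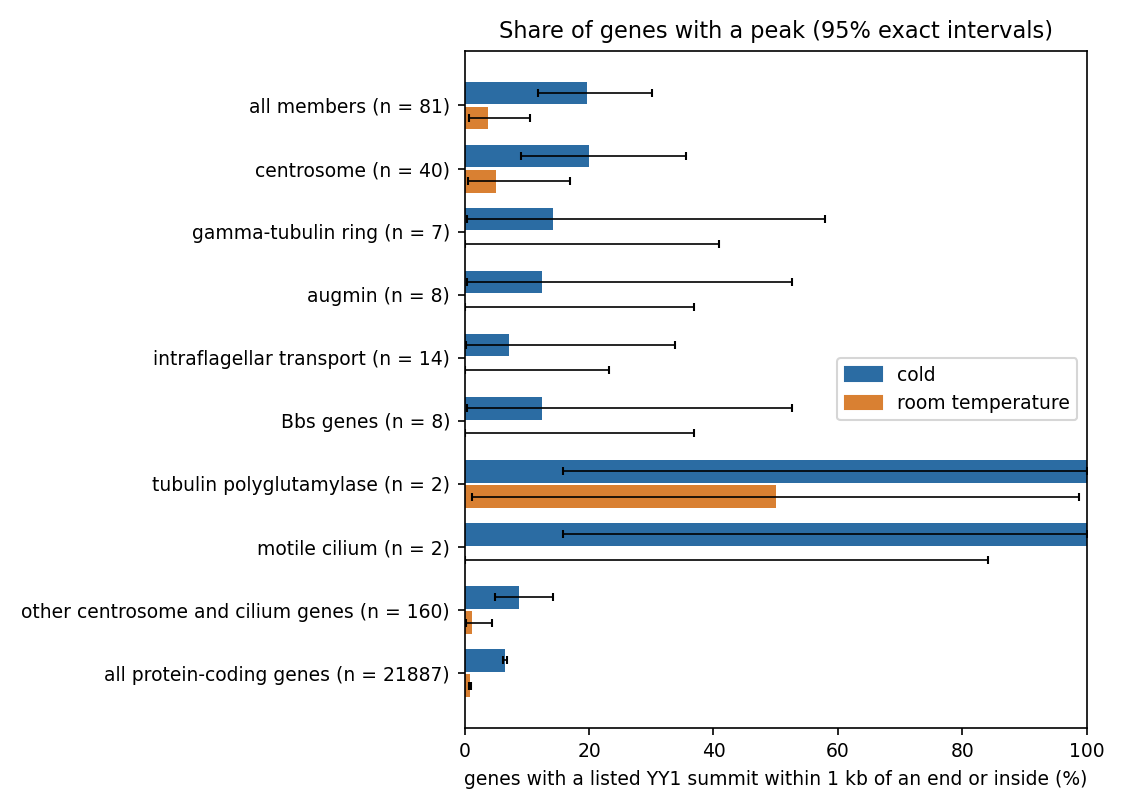
Bars give the percentage of genes with a listed summit inside them or within 1 kb of an end, by role, for the cold library (upper bar) and the room temperature library (lower bar), with exact 95% intervals. The members stand at 19.8% after cold and 3.70% at room temperature, beside 6.42% and 0.864% of all protein-coding genes; the motile cilium row holds Ccdc151 and Iqcg, which were named singly.

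Tubulin polyglutamylase, which adds glutamate chains to tubulin and so marks microtubules of cilia and neurons, had both of its Tpgs subunit genes in the cold list. Since Tpgs1 had been named by earlier results of these lists, this count is a description only. For all protein-coding genes the cold share was 6.42%, and for 26 other tubulin-modifying enzymes and partners it was 3.85%. Tpgs1 carried 135 fragments at its summit after cold (95% Poisson interval 113 to 160), against 31 at room temperature (21.1 to 44.0). It ranked 1 of 1259 summits after cold and 3 of 165 at room temperature, by the authors' −log10 q. The peak spanned 940 bp after cold and 640 bp at room temperature. Its summit lay 71 bp upstream of the Tpgs1 start after cold and 38 bp upstream at room temperature, a gap of 33 bp between libraries. The neighbour in reach was Madcam1, which encodes an adhesion molecule of gut vessels, but only through its far end, 826 bp from the cold summit; the Madcam1 start lay 4809 bp away. Tpgs2 carried 14 fragments after cold (7.65 to 23.5), 177 bp outside the gene and inside the overlapping gene AW554918, and was not listed at room temperature.

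Among the scaffold proteins of the pericentriolar matrix, Cdk5rap2 and Pcnt owned summits in both libraries. Cdk5rap2, which recruits and activates gamma-tubulin rings at the centrosome, carried 112 fragments after cold (92.2 to 135) and 24 at room temperature (15.4 to 35.7). It ranked 2 of 1259 after cold and 6 of 165 at room temperature, and its summit lay 128 bp upstream of the start after cold and 108 bp upstream at room temperature. Pcnt, which encodes pericentrin, the large anchor of that matrix, carried 29 fragments after cold (19.4 to 41.6) and 13 at room temperature (6.92 to 22.2). The Poisson intervals of both libraries overlap at Pcnt and not at Cdk5rap2 and Tpgs1. Overlap of separate intervals does not compare the counts. At Pcnt the ratio of cold to room temperature had an interval of 1.12 to 4.67, for counting error only. The Pcnt summit lay inside the gene, 472 bp past its start after cold and 476 bp past it at room temperature, so the position was the same within 4 bp.

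The cold pileup was 4.67 times the room temperature pileup at Cdk5rap2 (95% interval 2.98 to 7.59), 4.35 times at Tpgs1 (2.93 to 6.66) and 2.23 times at Pcnt (1.12 to 4.67). Intervals of pileups and of their ratios cover counting error only, since fragments may include PCR copies and no second library was at hand. For comparison, 154 peaks were in both lists at a background of 10 fragments or fewer. Their median ratio was 3.28 (quartiles 2.57 and 4.17), and 92.9% of these peaks had a cold pileup at least 2 times the room temperature one. Of these 154 peaks 127 had a lower ratio than Cdk5rap2, 121 a lower one than Tpgs1 and 18 a lower one than Pcnt. The strongest and the weakest of the 3 members thus stood on opposite sides of the median of all shared peaks. Over the authors' fold enrichments, which divide by the local background, the ratio was 4.30 at Cdk5rap2, 4.43 at Tpgs1 and 1.59 at Pcnt, where the background was 1.33 fragments after cold and 0.725 at room temperature. A part of the members' difference that is separate from that of the whole library was not tested.

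**Figure D3:**
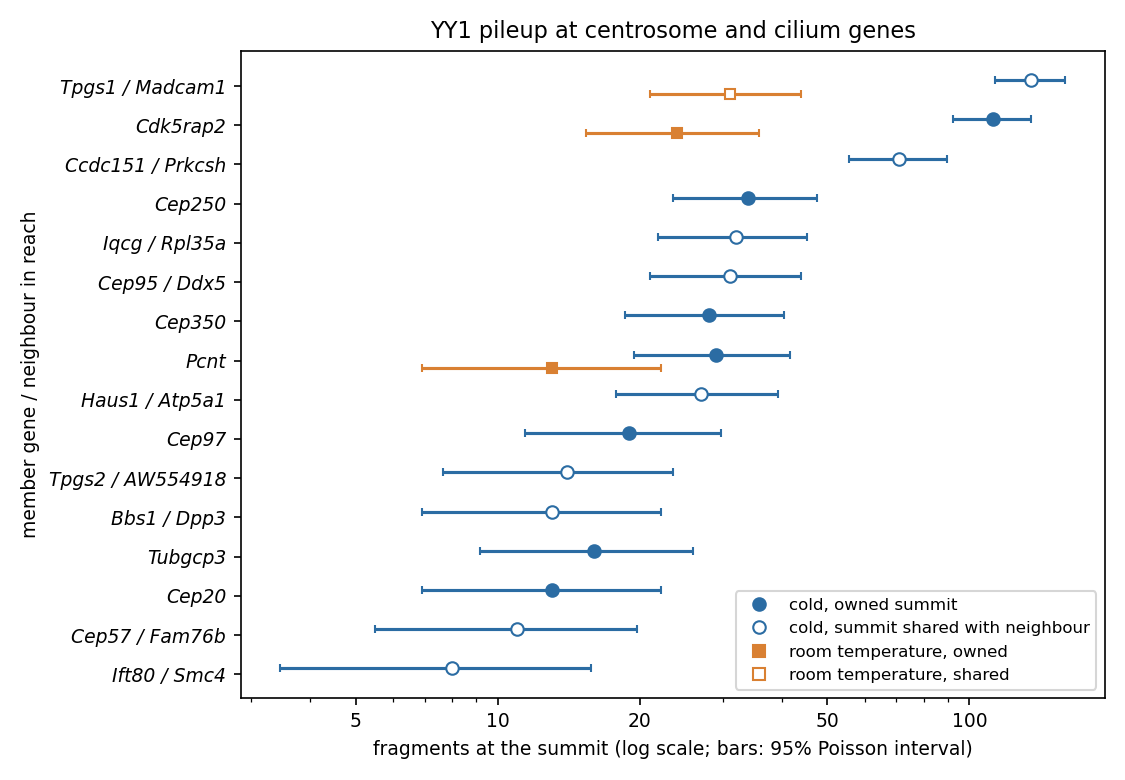
Each row is a member with a cold summit, with the neighbour in reach after the slash, ordered by the authors' −log10 q in the cold list; the x axis is the number of fragments at the strongest summit on a log scale, circles are the cold library, squares the room temperature library, filled marks owned summits and open marks shared ones, with 95% Poisson intervals. Tpgs1 (135 fragments after cold and 31 at room temperature), Cdk5rap2 (112 and 24) and Pcnt (29 and 13) are in both lists, and the other 13 rows have a cold value only.

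The centrosome group had 8 of 40 genes in the cold list (20.0%, 9.05 to 35.6), where 6.42% of all protein-coding genes were listed. Among the 8 was Cdk5rap2, which earlier results of these lists had named. Beyond Cdk5rap2 and Pcnt, 6 of these genes had a cold summit and none a room temperature one. Cep250, which encodes the linker that holds the pair of centrioles together, carried 34 fragments (23.5 to 47.5) at rank 173, 107 bp upstream of its listed start. That summit lay 166 bp inside the outer end of Cep250. Cep350, a centriole protein that helps anchor microtubules, carried 28 (18.6 to 40.5), 128 bp outside the gene. Cep97, a partner of the cap protein that restrains the growth of centrioles and cilia, carried 19 (11.4 to 29.7), 92 bp past its start. Cep20, known for a role in the assembly of cilia, carried 13 (6.92 to 22.2), 43 bp past its listed start and 940 bp inside the gene's outer end. These 4 owned their summits, as Cdk5rap2 and Pcnt did, so 6 of the 8 centrosome members with a cold summit were owners. That share was 75.0% (34.9 to 96.8), beside 61.3% over all protein-coding genes with a cold summit.

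The other 2 of those 8, Cep95 and Cep57, shared their summits with a gene on the opposite strand. Cep95, which encodes a centrosomal protein, had a pair of cold summits 917 bp apart, with 31 fragments (21.1 to 44.0) and 20 fragments (12.2 to 30.9). Both lay inside Ddx5, an RNA helicase gene that overlaps Cep95 by 546 bp. The weaker summit lay 175 bp past the nearest Ddx5 start and at -520 bp from the listed Cep95 start, 92 bp inside the outer end of Cep95. The stronger one was 679 bp past the nearest Ddx5 start and at -1437 bp from the Cep95 start. Cep57, which encodes a pericentriolar protein, carried 11 fragments (5.49 to 19.7), 239 bp past its nearest start and at -902 bp from the start of Fam76b.

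The gamma-tubulin ring, which templates new microtubules, had 1 of 7 genes in the cold list (14.3%, 0.361 to 57.9). Tubgcp3, a core subunit of the ring, owned a summit with 16 fragments (9.15 to 26.0), 60 bp past its listed start. With lncRNA genes counted as neighbours as well, Tubgcp3 shared it with 4931415C17Rik. The gamma-tubulin genes Tubg1 and Tubg2, which are close copies of each other, and Tubgcp2, Tubgcp4, Tubgcp5 and Tubgcp6 had none. The treatment of reads that match several places was not given in the sources used here, which bears on close copies such as Tubg1 and Tubg2.

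Augmin, which seeds branched microtubules in the spindle, had 1 of 8 genes in the cold list (12.5%, 0.316 to 52.7). Haus1 carried 27 fragments (17.8 to 39.3), 183 bp outside the gene and 300 bp inside Atp5a1, the ATP synthase alpha subunit gene, which overlaps Haus1 by 118 bp. Haus2, Haus3, Haus4, Haus5, Haus6, Haus7 and Haus8 had no listed summit. Of 14 intraflagellar transport genes 1 was listed (7.14%, 0.181 to 33.9), Ift80, a subunit of the transport train that moves towards the tip of the cilium. It had 8 fragments (3.45 to 15.8), ranked 1214 of 1259, and lay 372 bp outside Ift80 and 314 bp inside Smc4, a condensin subunit gene. Of the 8 Bbs genes 1 was listed (12.5%, 0.316 to 52.7), Bbs1, with 13 fragments (6.92 to 22.2), 64 bp past its start; the neighbour Dpp3 was reached only at its far end, 666 bp away, with its nearest start 21407 bp from the summit. The cold share over all protein-coding genes, 6.42%, lies within the interval of each of these 4 groups, the gamma-tubulin ring, augmin, transport and Bbs genes.

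The motile cilium genes Ccdc151 and Iqcg were both in the cold list and not at room temperature. Earlier results of these lists had named both, so their cold listing is part of the choice and says nothing about the group. A cold summit was listed at 6.42% of all protein-coding genes and at 1 of 33 other motile cilium genes (3.03%), described below. Ccdc151, which is needed to dock dynein motors on the axoneme, carried 71 fragments (55.5 to 89.6) at rank 29. Its summit lay upstream of both listed starts, at -255 bp from the listed start of Ccdc151 on the minus strand and at -99 bp from that of Prkcsh on the plus strand, and 83 bp inside the outer end of Ccdc151. Prkcsh encodes the regulatory subunit of glucosidase II, a glycoprotein-folding enzyme of all secretory cells. Iqcg, a subunit gene of the dynein regulatory complex, carried 32 fragments (21.9 to 45.2). The summit lay at -360 bp from the listed Iqcg start and 32 bp past the nearest start of Rpl35a, a ribosomal protein gene that overlaps Iqcg by 693 bp.

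At both pairs the longer form AANATGGC was found in start windows of the neighbour and not in that of the member. The windows of Ccdc151 and Iqcg did not reach those copies, although the copies lie inside Ccdc151 and inside Iqcg. The contrast therefore depends on where the windows are cut. The member windows of Ccdc151 and Iqcg each held 1 copy of the shorter ATGGC. The start window of Prkcsh (chr9:22002738-22003037, plus strand) held 2 copies of AANATGGC, and these lay 8 and 52 bp downstream of the summit in the direction of Prkcsh. It is shown whole because it contains the summit that Ccdc151 shares. The stretch of the Rpl35a window (chr16:33056470-33056517, plus strand) holds 1 copy on the other strand, which reads GCCATCTT and lies at -53 bp from the summit. The Ddx5 window that holds the weaker Cep95 summit had 1 copy too, 91 bp from that summit.
Prkcsh: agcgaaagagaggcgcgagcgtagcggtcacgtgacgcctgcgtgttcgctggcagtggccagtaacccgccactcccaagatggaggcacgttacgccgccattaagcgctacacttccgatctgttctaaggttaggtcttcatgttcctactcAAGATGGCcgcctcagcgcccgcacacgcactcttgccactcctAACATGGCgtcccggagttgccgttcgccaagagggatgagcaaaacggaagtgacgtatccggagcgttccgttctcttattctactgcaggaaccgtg
Rpl35a: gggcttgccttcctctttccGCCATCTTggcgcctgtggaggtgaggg

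Among the 9 sharers, the neighbour had the nearer gene end at 3, which were Iqcg, Cep57 and Ift80. With each summit given only to the nearest protein-coding gene end, these 3 dropped out and 13 members remained with a cold summit. By the listed starts 6 of the 9 sharers could be placed, and Haus1, Tpgs2 and Ift80 were not. The neighbour's start was the nearer one at Ccdc151, Iqcg and both summits of Cep95. The member's own start was nearer at Cep57, Tpgs1 and Bbs1. Nearest start and nearest gene end thus named different genes at Ccdc151, Cep95 and Cep57, and the 13 members hold for gene ends only. At Ccdc151, Iqcg, Cep95 and Cep57 the member and its neighbour start in opposite directions from nearby starts. At Tpgs1 and Bbs1 the neighbour runs on the same strand and only its far end is in reach. When the reach was narrowed to 500 bp these last 2 became owners, and the split was 9 owners and 7 sharers. Of the 12 members with a cold summit and a listed start, 11 had a summit within 500 bp of a start, the exception being Cep95 at 520 bp; over all protein-coding genes with both, 84.3% of 1168 did. The median distance to the nearest start was 118 bp for these members and 128 bp for all such genes.

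**Figure D4:**
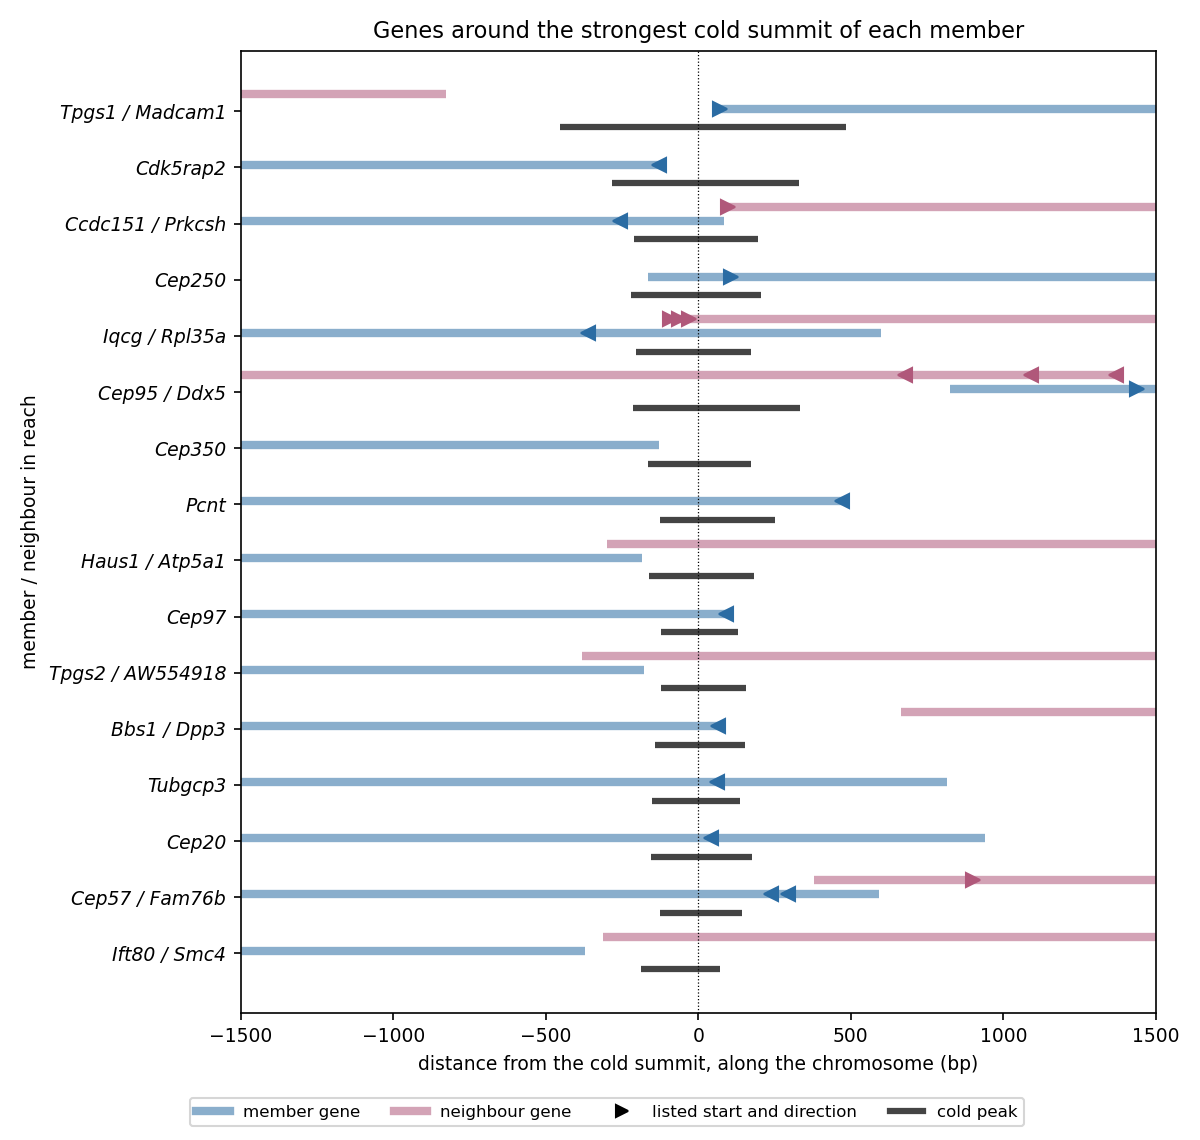
Each row is centred on the strongest cold summit of a member, with the member gene in blue, the neighbour in reach in pink, the cold peak in dark grey and arrowheads at listed starts pointing along the gene; the x axis is the distance from the summit along the chromosome in bp. The arrowheads of Ccdc151 and Prkcsh point away from each other around the summit, while Madcam1 ends 826 bp from the Tpgs1 summit with no start in view.

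The strength of the member summits ran from 8 to 135 fragments after cold, with a median of 27 over 17 summits against 20 over all 1259. The 7 owners had a median of 28 fragments at their strongest summit (13 to 112) and the 9 sharers one of 27 (8 to 135), so the ranges overlapped nearly in full. Listing at room temperature followed cold strength in the list as a whole. Of the 34 cold peaks with 71 to 135 fragments, 26 were also listed at room temperature (76.5%, 58.8 to 89.3), and of the 3 members in that range 2 were, Ccdc151 being the exception. Of the 177 peaks with 27 to 34 fragments 33 were (18.6%, 13.2 to 25.2), and of the 6 members there 1 was, Pcnt. Of the 566 peaks with 8 to 19 fragments 15 were (2.65%, 1.49 to 4.33), and of the 7 members there none was. A member absent from the room temperature list has no measured value there, since a site under the listing threshold is not reported.

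**Figure D5:**
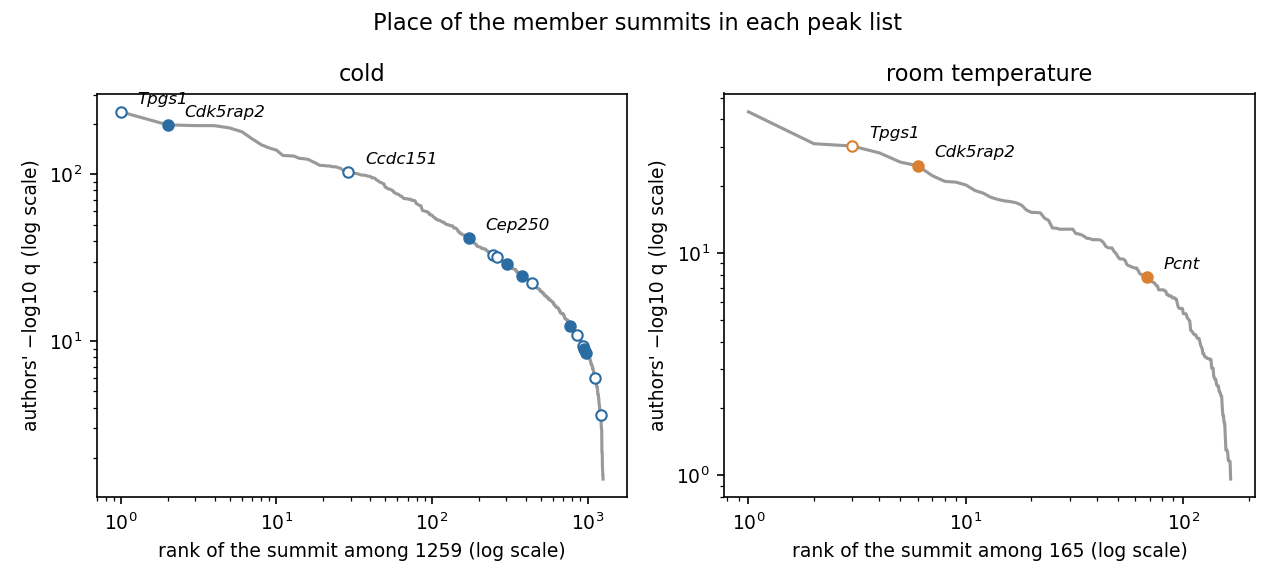
Grey curves give the authors' −log10 q of every summit against its rank in the cold list (left) and the room temperature list (right), both axes on log scales; circles mark the strongest summit of each member, filled where the member owns it. Tpgs1 ranks 1 and Cdk5rap2 ranks 2 after cold, Tpgs1 ranks 3, Cdk5rap2 ranks 6 and Pcnt ranks 68 at room temperature, and the other members are spread down the cold curve.

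The 65 members without a cold summit include most of each larger group. In the centrosome group these included Cep19, Cep41, Cep43, Cep44, Cep55, Cep57l1, Cep63, Cep68, Cep70, Cep72, Cep76, Cep78, Cep83, Cep85, Cep85l, Cep89, Cep112, Cep120, Cep126, Cep128, Cep131, Cep135, Cep152, Cep162, Cep164, Cep170, Cep170b, Cep192, Cep290, Cep295 and Cep295nl. They hold Cep152, which starts the assembly of new centrioles, Cep192, which recruits mitotic kinases to the centrosome, and Cep164 and Cep290, which serve the base of the cilium. The transport genes without a summit were Ift20, Ift22, Ift27, Ift43, Ift46, Ift52, Ift57, Ift74, Ift81, Ift88, Ift122, Ift140 and Ift172. The Bbs genes without one were Bbs2, Bbs4, Bbs5, Bbs7, Bbs9, Bbs10 and Bbs12, of which Bbs10 and Bbs12 encode chaperonin-like assembly factors. The member just outside the 1 kb reach was Ift46, with a cold summit 2639 bp away, followed by Cep131 at 12126 bp; the outermost summit in reach outside a gene was the stronger one at Cep95, at 825 bp.

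Of 160 other genes of centrosomes, cilia and tubulin modification, 14 had a cold summit (8.75%, 4.87 to 14.2) and 2 a room temperature one (1.25%, 0.152 to 4.44). Of all protein-coding genes 6.42% had a cold summit and 0.864% a room temperature one, and both shares lie within the intervals of these lists. Both of these 2 were cilium genes. Mkks, a chaperonin-like gene of BBSome assembly, carried 67 fragments after cold (51.9 to 85.1) and 20 at room temperature (12.2 to 30.9), beside Slx4ip. Wdr34, which encodes an intermediate chain of the dynein motor of intraflagellar transport, carried 65 after cold (50.2 to 82.8) and 13 at room temperature (6.92 to 22.2). The BBSome subunit gene Bbip1, with Shoc2 in reach, had 40 fragments after cold (28.6 to 54.5). Unc119b, which delivers lipid-tagged proteins to cilia, had 28 (18.6 to 40.5). With Mks1, Ahi1, Cc2d2a and Tmem216, genes of the gate at the base of the cilium, the cilium list reached 8 of 62 after cold (12.9%, 5.74 to 23.9). The Cc2d2a summit lay 10138 bp inside the gene, so it counted through the gene body only.

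Of 39 other centrosome genes 4 had a cold summit (10.3%, 2.87 to 24.2), all with at most 18 fragments. Sass6, the gene of the cartwheel protein at the core of new centrioles, had 18 (10.7 to 28.4), with Trmt13 in reach. Odf2, an appendage protein gene of the older centriole, had 13 (6.92 to 22.2). Pcm1, the scaffold gene of centriolar satellites, had 12 (6.20 to 21.0), and Plk4, the kinase that triggers centriole duplication, had 8 (3.45 to 15.8). Of 33 other motile cilium genes only Rfx3, a transcription factor of ciliated cells, had one (3.03%, 0.0767 to 15.8), with 25 fragments (16.2 to 36.9), 2740 bp inside the gene and at -763 bp from its nearest listed start. Of 26 tubulin-modifying enzymes and partners only Ttll11, a polyglutamylase, had one (3.85%, 0.0973 to 19.6), with 34 fragments (23.5 to 47.5).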

How the data were processed

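Peak lists of 1 cold and 1 room temperature YY1 library were used. BWA, SAMtools, MACS2, deepTools and DESeq2 with the mm10 build are named, per the submitters' processing notes; versions, settings, the treatment of duplicates and any control were not given in the sources used here. Each library has 1 deposited list. Each deposited entry holds a score (everywhere 10 times the −log10 p, less its decimals), a fold enrichment at the summit (a linear ratio), a −log10 p and −log10 q value and a summit offset, all from the authors' peak caller.

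The fragments at each summit were computed from the deposited fold, taken as (pileup + 1) / (background + 1), and the deposited −log10 p of the Poisson upper tail. A whole pileup within 0.0002 on the −log10 p scale was found for all 1259 cold and all 165 room temperature entries. The lowest background per listed width put the cold library at 1.05 times the depth of the room temperature library; absolute depths are unknown. The recovery and the gene assignment were checked on simulated data.

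Genes, ends and start windows came from RefSeq tables of GRCm38.p6; the gene table has no strand or exons. Peaks of both lists that overlapped by at least 1 bp were paired. Members, lists and roles were chosen with earlier results of these data known. Named were all members with a summit and up to 4 genes of each other list by cold −log10 q, with the rest of the cilium list added by name. Some items are not reported here. No test was run, with 1 library per condition. Alternatives covered the reach, the threshold, the neighbour rule, the symbols and the ratio. Python 3.11.15, NumPy 2.4.6, pandas 2.3.3, SciPy 1.17.1 and Matplotlib 3.10.9 were used.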

Additional observations from a re-analysis of the deposited data

How the results depend on the processing

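Of 33 values under an alternative setting, 30 stayed close to the reported value (within 1.5 times, for a count) and 3 moved. The room temperature count of 3 members was 1, Tpgs1, without the 6 genes named singly. It was 5 with older symbols matched too, with Mkks among the genes added. The 1 room temperature sharer was 0 with a reach of 500 bp. The 33 values hold the split into owners and sharers for some settings only. Without the 6 named genes it was 5 owners and 7 sharers after cold, and 0 and 1 at room temperature. With older symbols it was 3 and 2 at room temperature. With each summit given only to the nearest gene end no summit can be shared, and the cold split was 13 and 0. After cold the count of members ran from 12 without the 6 named genes to 19 with older symbols, with Cntrl and Mkks among the genes added, and the stricter −log10 q of at least 3 kept it at 16. The median cold to room temperature ratio ran from 4.16 when scaled by depth to 4.35. The setting with older symbols was chosen after seeing the data. No paired analysis was possible because there was only 1 library per condition, and no library could be left out. Depth limits what is listed, since a missing entry is not a measured 0.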
